A study of Homo sapiens with 42 samples.

Results

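The Fanconi anaemia genes described here are FANCA, FANCB, FANCC, FANCD2, FANCE, FANCF, FANCG, FANCI, FANCL and FANCM. They were taken by symbol from a table of 26228 gene rows, and all 10 had a row and were among the 12816 genes tested. Expression was measured by sequencing of polyadenylated RNA from HAP1, a near-haploid human line derived from a chronic myeloid leukaemia. The cells had either wild-type CDK7 (WT) or CDK7 with the C312S substitution (C312S). The labels do not say how the C312S line was made or whether it is a single clone. Each line was treated for 24 h with YKL at 500 nM, YKL at 2 µM, THZ531, THZ1, a combination at 500 nM, a combination at 2 µM, or DMSO, the vehicle. That makes 14 groups of 3 libraries, 42 in all. The compound labelled YKL is taken to be the CDK7 inhibitor named in the title of the series, THZ531 is a covalent inhibitor of CDK12 and CDK13, and THZ1 covalently inhibits CDK7 as well as CDK12 and CDK13. The combinations are taken to be THZ531 with YKL at the stated dose, since their column names carry the codes of these 2 compounds. Doses of THZ531 and THZ1 are not stated in the labels. Nor do they say that the 3 libraries of a group are separate cultures, so the p-values reflect variation between libraries alone, possibly technical.

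The Fanconi anaemia pathway repairs DNA interstrand crosslinks met by replication forks. A nuclear core complex, which includes FANCA, FANCB, FANCC, FANCE, FANCF, FANCG and FANCL, acts as an E3 ubiquitin ligase and is brought to stalled forks by FANCM. It attaches ubiquitin to FANCD2 and FANCI, which clamp onto DNA as a pair and bring in nucleases and homologous recombination proteins. For most genes of the pathway, loss causes Fanconi anaemia, an inherited bone marrow failure with a high cancer risk. Several of these genes are known to be transcribed most in S phase, and several DNA repair genes are known to depend on CDK12.

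Values are FPKM, which are scaled to transcript length and to the library, so the genes can be ranked. In WT cells with DMSO, FANCI, a partner in the clamp, had the highest level, at 82.2 ± 0.592 FPKM (SD, n = 3 here and for every group mean). FANCD2, the other partner, followed at 26.6 ± 0.808 FPKM. FANCL, the ligase subunit, and FANCG, a core subunit that binds FANCA, were at 20.5 ± 1.18 and 20.2 ± 0.328 FPKM, and their libraries overlapped. FANCA stood at 13.2 ± 0.644, FANCE at 12.0 ± 0.829, FANCC at 10.2 ± 0.780 and FANCB at 6.35 ± 0.438 FPKM. FANCF, at 4.32 ± 0.376, and FANCM, at 3.98 ± 0.467 FPKM, were the lowest and overlapped with each other. Over the 14 groups FANCA varied most, with a highest group mean (C312S with THZ1) 3.55 times the lowest (WT with YKL 2 µM). FANCC varied least, with a ratio of 1.22. The lowest group mean was that of WT with YKL 2 µM for 5 genes (FANCA, FANCD2, FANCE, FANCI and FANCL).

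The genes differ in build. In the GENCODE v29 annotation of GRCh38, FANCA and FANCD2 have 43 exons each and FANCI has 38, whereas FANCF is a single exon within a gene of 3.0 kb. FANCA lies on chromosome 16, FANCD2 on 3, FANCE on 6, FANCF on 11, FANCG and FANCC on 9, FANCI on 15, FANCL on 2, FANCM on 14 and FANCB on X. Transcript GC content ran between 36.7% in FANCB and 58.1% in FANCG. Of the annotated genes that overlap a member on the other strand, ZNF276 (at FANCA), VRK2 (at FANCL) and POLG (at FANCI) were expressed. The library kit is named as stranded in the labels, but whether the counting used strand is not given, so FANCA, FANCL and FANCI are uncertain to that extent. Values of ZNF276, VRK2 and POLG are given beside theirs in many of the comparisons, but not in all.

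The promoter windows of 5 genes are shown because these genes set out the patterns that follow: FANCD2, FANCE and FANCG were lower with YKL in WT cells, FANCA was higher with THZ531 and THZ1, and FANCF was lower with both. Each runs 5′ to 3′ over 300 bases of GRCh38.p14 as RefSeq gives it, with 250 bases before the gene's start and 50 after it. Capitals mark matches to the E2F-type motif, searched on both strands as TTCCCGC, the variant TTCGCGC, the variant TTGCCGC and the variant TTGGCGC.
FANCD2, chr3:10026187-10026486, plus strand: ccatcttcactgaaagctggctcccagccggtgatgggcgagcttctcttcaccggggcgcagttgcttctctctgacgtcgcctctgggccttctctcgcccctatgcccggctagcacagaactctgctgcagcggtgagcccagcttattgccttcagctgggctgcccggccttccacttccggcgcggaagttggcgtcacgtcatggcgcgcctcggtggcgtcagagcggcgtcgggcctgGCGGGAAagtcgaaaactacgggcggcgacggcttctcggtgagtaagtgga
FANCE, chr6:35452088-35452387, plus strand: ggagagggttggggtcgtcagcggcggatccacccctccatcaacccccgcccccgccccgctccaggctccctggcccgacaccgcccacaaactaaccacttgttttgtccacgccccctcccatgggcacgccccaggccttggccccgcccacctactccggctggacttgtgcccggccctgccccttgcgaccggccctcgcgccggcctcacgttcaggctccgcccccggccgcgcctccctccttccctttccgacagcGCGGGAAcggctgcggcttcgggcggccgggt
FANCG, chr9:35079893-35080192, minus strand: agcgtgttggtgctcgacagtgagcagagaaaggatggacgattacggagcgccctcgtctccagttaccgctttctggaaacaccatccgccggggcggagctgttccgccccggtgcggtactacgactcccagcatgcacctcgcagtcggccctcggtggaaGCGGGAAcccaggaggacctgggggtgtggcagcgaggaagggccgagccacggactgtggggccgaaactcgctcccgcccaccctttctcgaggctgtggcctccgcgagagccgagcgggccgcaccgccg
FANCA, chr16:89816598-89816897, minus strand: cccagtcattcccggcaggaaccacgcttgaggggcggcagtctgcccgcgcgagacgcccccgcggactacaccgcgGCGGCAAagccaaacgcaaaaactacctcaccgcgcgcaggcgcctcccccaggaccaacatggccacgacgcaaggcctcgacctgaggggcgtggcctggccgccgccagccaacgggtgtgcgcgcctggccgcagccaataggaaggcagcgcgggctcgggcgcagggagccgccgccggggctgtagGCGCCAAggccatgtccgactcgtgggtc
FANCF, chr11:22625774-22626073, minus strand: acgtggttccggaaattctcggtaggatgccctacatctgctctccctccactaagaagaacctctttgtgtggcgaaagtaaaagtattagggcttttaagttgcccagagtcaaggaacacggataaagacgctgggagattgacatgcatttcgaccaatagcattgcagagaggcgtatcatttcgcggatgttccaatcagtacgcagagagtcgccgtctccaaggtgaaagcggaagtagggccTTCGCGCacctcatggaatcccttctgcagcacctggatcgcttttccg
The table held a promoter for 9 of the 10 genes, all but FANCI. An E2F-type match was present for 7 of them (FANCA, FANCC, FANCD2, FANCE, FANCF, FANCG and FANCL), against 13% of all 35116 promoters in the table. A gene was counted if any of its promoters had a match, and FANCC has 2, whereas the shares of all are of single promoters. The GC content of the promoters was not taken into account. Genes with a match include FANCC and FANCF, which did not pass with YKL 500 nM in WT in FPKM as deposited. Under spike-in scaling FANCC and FANCF passed as lower, FANCF at -0.51, where the median of all tested genes was -0.58. FANCB, which has no match, passed as lower there too. The relation of the matches to the changes was not tested. The CCAAT box, CCAAT on either strand, was found in 3 genes, against 34.6% of all promoters. The CHR motif, TTTGAA on either strand, was found in 1 gene (FANCC), against 15.2%. All these motif matches describe letters only and say nothing of what binds there.

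All changes are differences of log2(FPKM + 1) tested with limma, and a gene passed where the Benjamini-Hochberg adjusted p over all tested genes was under 0.05. This scale understates the change of low genes. Depth is unknown, because the table holds no read counts. Summed FPKM of the genes was between 780085 and 913367 in the 6 C312S libraries with DMSO or THZ1, between 542909 and 597533 in the other 15 C312S libraries and between 447938 and 637758 in the 21 WT libraries. The C312S libraries with DMSO and THZ1 therefore stand apart, and for the other C312S treatments only counts are given against C312S DMSO. FPKM are relative to the other genes of a library. Scaling by the ERCC spike-in RNAs would shift the median log2 change over DMSO in WT. The shift would be -0.58 for YKL 500 nM, -0.10 for YKL 2 µM, 0.08 for THZ531, -1.99 for THZ1, and -0.34 and -0.93 for the combinations at 500 nM and 2 µM. Of 16 blood cell markers, 3 exceeded 1 FPKM in any group (GATA2, TAL1 and KIT), while HBG1 was at 0 and PTPRC, SPI1, GATA1 and MPO were near 0. The summed level of the 16 was between 9.65 and 32.8 FPKM in a library, lowest in C312S with DMSO (9.65 to 10.2) and highest in WT with THZ1 (27.3 to 32.8). Of 14 epithelial and fibroblast markers, 5 exceeded 1 FPKM (VIM, KRT18, KRT8, COL1A1 and THY1), and DCN and LUM were at 0. The part of these shifts in the results below was not tested. In bulk RNA, fewer cells in a cell cycle phase and less RNA per cell cannot be told apart.

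At each dose, YKL lowered both genes of the clamp, FANCD2 and FANCI, and 4 of the core complex genes, FANCA, FANCE, FANCG and FANCL, in WT cells. FANCD2 had 13.5, 13.2 and 13.2 FPKM with YKL 500 nM and 12.1, 10.6 and 11.5 FPKM with YKL 2 µM, against 25.8, 26.5 and 27.5 FPKM with DMSO. All treated libraries lay far below all DMSO libraries, and the treated means were 49.9% and 42.9% of the DMSO mean. The log2 change was -0.95 (95% interval -1.06 to -0.84, limma adjusted p = 9.57e-16) with 500 nM and -1.16 (-1.27 to -1.04, limma adjusted p = 4.86e-18) with 2 µM. FANCI, its partner, fell less, with log2 changes of -0.28 and -0.50 (limma adjusted p = 1.97e-06 and 1.49e-11 for 500 nM and 2 µM). Its libraries were at 66.6, 69.1 and 67.0 FPKM with 500 nM and 60.9, 57.0 and 55.4 FPKM with 2 µM, against 82.6, 81.5 and 82.5 FPKM with DMSO. The groups did not overlap, but when libraries were scaled to equal total FPKM the change with 500 nM was -0.05 and did not pass. POLG, which overlaps FANCI, rose by 0.16 with 500 nM (limma adjusted p = 0.036) and changed by 0.14 with 2 µM, which did not pass.

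**Figure D1:**
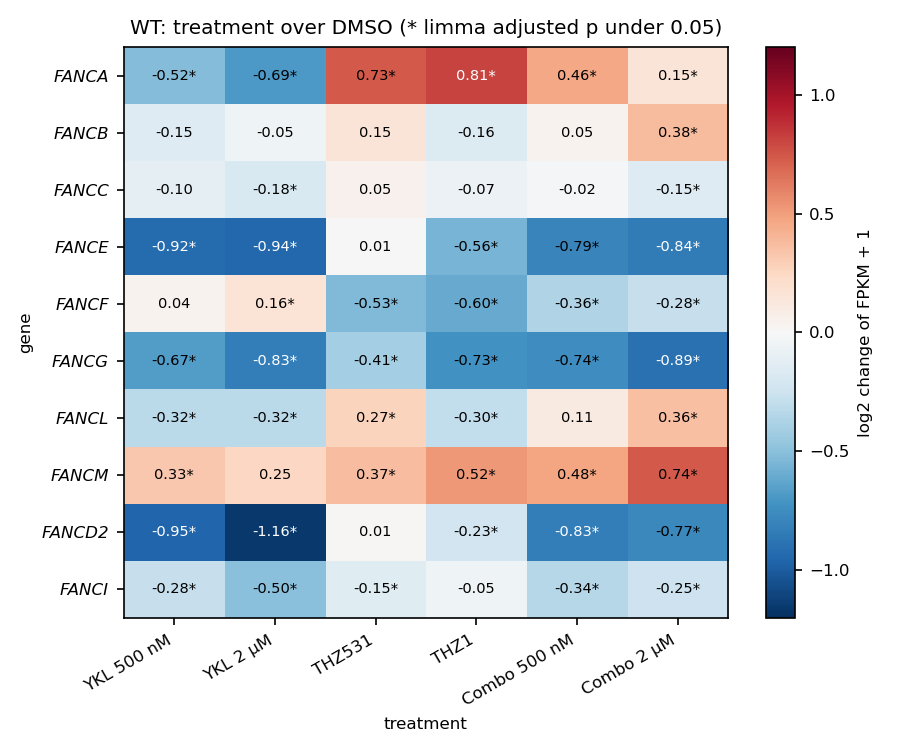
Log2 change of FPKM + 1 of the 10 genes (rows) in WT cells for each treatment over DMSO (columns), red where higher and blue where lower, with an asterisk where limma's adjusted p was under 0.05. FANCD2 and FANCE are at -0.77 or lower in both YKL and both combination columns and at 0.01 with THZ531, whereas FANCA is negative with YKL alone and positive in the other 4 columns.

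Within the core complex the genes moved unequally. FANCE, which contacts FANCD2 directly, had 5.88, 5.69 and 5.98 FPKM with YKL 500 nM and 5.31, 5.86 and 6.09 FPKM with 2 µM, against 12.4, 11.02 and 12.5 FPKM with DMSO. The 2 doses gave overlapping libraries, and their means were 48.8% and 48.0% of the DMSO mean (log2 change -0.92 and -0.94, limma adjusted p = 4.62e-14 and 1.93e-14). FANCG had 11.5, 12.5 and 13.0 FPKM with 500 nM and 10.7, 11.8 and 10.3 FPKM with 2 µM, against 20.3, 20.4 and 19.8 FPKM with DMSO (log2 change -0.67 and -0.83, limma adjusted p = 6.91e-11 and 4.38e-13). FANCA, the largest core subunit, had 9.03, 8.60 and 9.10 FPKM with 500 nM and 7.90, 7.91 and 7.70 FPKM with 2 µM, against 12.8, 12.9 and 13.96 FPKM with DMSO. Each dose lay apart from DMSO for both genes, and the FANCA changes were -0.52 and -0.69 (limma adjusted p = 9.19e-12 and 1.05e-14). ZNF276, which overlaps FANCA, changed by 0.01 and 0.04 and did not pass.

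FANCL, the catalytic subunit, fell by 0.32 with each dose (limma adjusted p = 0.000179 and 0.000146), with means of 16.2 ± 0.727 and 16.2 ± 0.385 FPKM with 500 nM and 2 µM, against 20.5 ± 1.18 FPKM with DMSO. Scaled to equal total FPKM, these changes were -0.10 and -0.05 and did not pass. VRK2, which overlaps FANCL, changed by -0.12 and 0.06 and passed with neither dose. FANCB, FANCL's neighbour in the complex, changed by -0.15 and -0.05 and passed with neither dose. With spike-in scaling FANCB passed as lower with 500 nM. FANCC, which forms a module with FANCE and FANCF, changed by -0.10 with 500 nM, where it did not pass, and by -0.18 with 2 µM, where it did (limma adjusted p = 0.0111). That call was lost without DMSO replicate 3 (limma adjusted p = 0.101), and with equal total FPKM the change was 0.08. With spike-in scaling FANCC passed as lower with 500 nM. FANCF had 4.03, 4.56 and 4.86 FPKM with 500 nM and 4.72, 5.03 and 5.09 FPKM with 2 µM, against 4.47, 3.89 and 4.59 FPKM with DMSO. Its change of 0.04 with 500 nM did not pass and was -0.51 with spike-ins (limma adjusted p = 0.000103). The change of 0.16 with 2 µM passed (limma adjusted p = 0.0385) but was lost without YKL 2 µM replicate 2 or 3 or DMSO replicate 2, and also with a pseudocount of 0.1 and without the filter on low values. FANCM, the translocase, had 5.86, 4.74 and 5.11 FPKM with 500 nM, against 3.44, 4.26 and 4.24 FPKM with DMSO. Its rise of 0.33 with 500 nM (limma adjusted p = 0.0146) was lost without YKL 500 nM replicate 1 or DMSO replicate 1, was -0.22 with spike-in scaling, and the 0.25 with 2 µM did not pass.

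**Figure D2:**
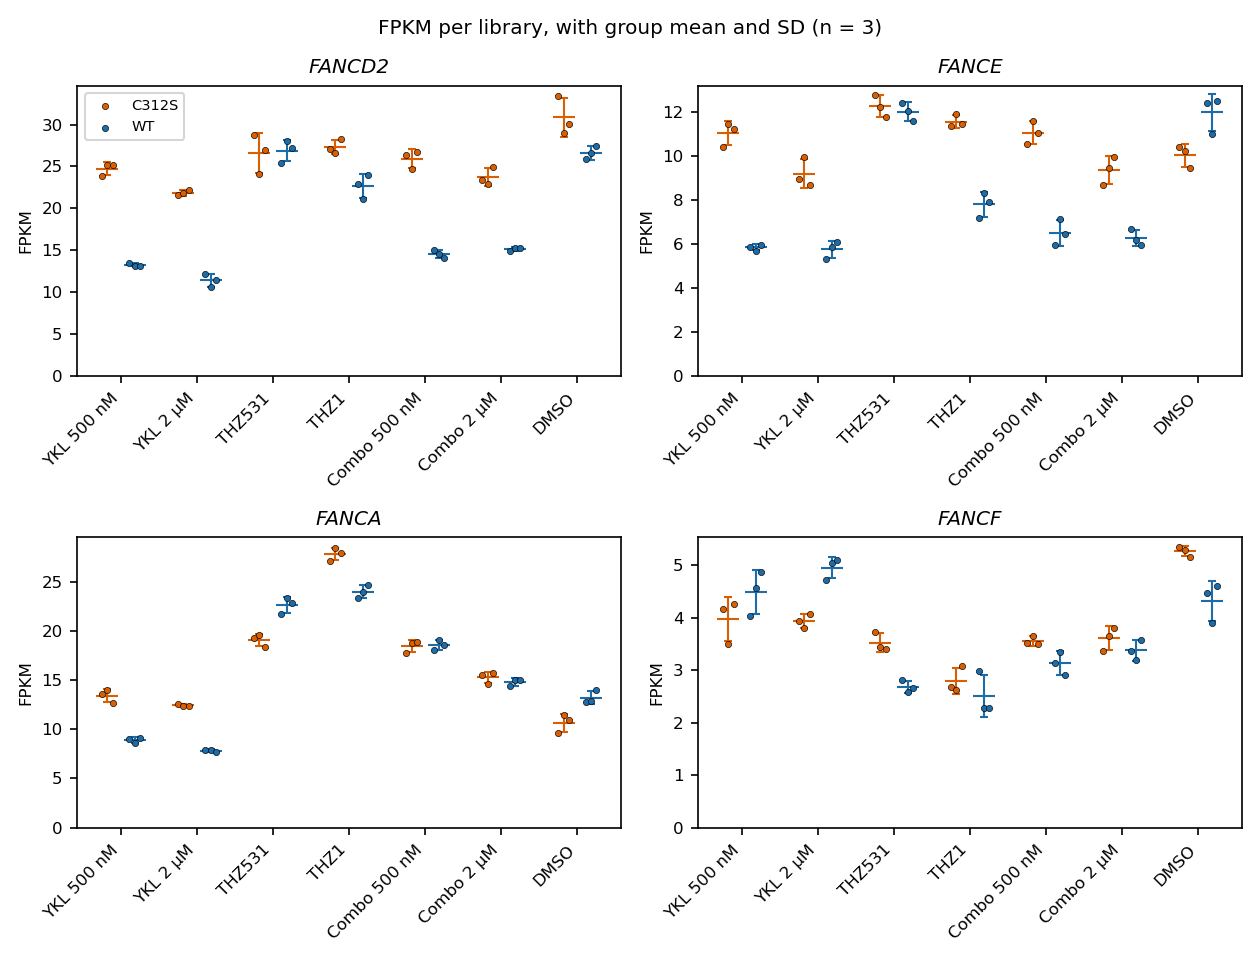
FPKM of FANCD2, FANCE, FANCA and FANCF in each library (points) for the 7 treatments, with group mean and SD (bars, n = 3), C312S in orange left of WT in blue. The WT points of FANCD2 and FANCE drop with YKL and the combinations while the C312S points stay above them, and FANCA has its highest mean with THZ1 in each line.

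With YKL 500 nM, 1 of the 10 genes was higher and 6 were lower, and of all tested genes 63.0% passed, 31.3% as higher and 31.7% as lower. With YKL 2 µM, 1 was higher and 7 lower, and of all tested genes 65.3% passed, 31.8% as higher and 33.5% as lower. The median change of the 10 genes was -0.30 with 500 nM and -0.41 with 2 µM, against -0.0019 and -0.0032 for all tested genes. Scaling moved these splits. With spike-ins 0 were higher and 9 lower with 500 nM, and 0 higher and 6 lower with 2 µM. All tested genes then had medians of -0.58 and -0.10. With equal total FPKM 2 were higher and 4 lower with 500 nM, and 2 higher and 5 lower with 2 µM, where those medians were 0.20 and 0.25. The falls of FANCD2, FANCE, FANCG and FANCA passed under all of these scalings. Between the doses, 2 µM against 500 nM, 0 genes were higher and 3 were lower, where 6.18% of all tested genes passed, 2.14% as higher and 4.04% as lower. FANCA changed by -0.17, FANCD2 by -0.21 and FANCI by -0.22 (limma adjusted p = 0.0198, 0.0193 and 0.0015). The FANCA and FANCD2 calls were each lost by leaving out any of 4 single libraries, and with spike-in scaling the 3 changes were 0.33, 0.30 and 0.31 and all 10 genes were higher, so the direction rests on the scaling. The median of all tested genes between the doses was 0.47 with spike-in scaling. For FANCE, the interval of the difference between doses was -0.15 to 0.10.

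THZ531 in WT cells left the clamp's FANCD2 and the core subunit FANCE near their DMSO levels and moved FANCA and FANCF in opposite directions. FANCA had 21.7, 23.4 and 22.8 FPKM with THZ531, against 12.8, 12.9 and 13.96 FPKM with DMSO. All treated libraries were higher, and the change was 0.73 (0.64 to 0.82, limma adjusted p = 3.05e-14). ZNF276 averaged 6.27 ± 0.597 FPKM with THZ531, against 12.4 ± 0.429 FPKM with DMSO, a change of -0.88 (limma adjusted p = 8.10e-10), the reverse of FANCA. FANCF, the single-exon gene, had 2.81, 2.58 and 2.66 FPKM with THZ531, against 4.47, 3.89 and 4.59 FPKM with DMSO. Its libraries did not overlap, and it fell by 0.53 (limma adjusted p = 3.08e-07). FANCD2 changed by 0.01 (-0.10 to 0.13) and FANCE by 0.01 (-0.12 to 0.13).

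FANCG also fell, to 15.4, 14.8 and 14.6 FPKM with THZ531, against 20.3, 20.4 and 19.8 FPKM with DMSO (log2 change -0.41, limma adjusted p = 2.99e-06). FANCI fell by 0.15 (limma adjusted p = 0.00756), a call lost with equal total FPKM (-0.07), and POLG changed by -0.15 and did not pass. FANCL, at 24.7, 24.1 and 26.0 FPKM with THZ531, against 21.6, 19.3 and 20.7 FPKM with DMSO, rose by 0.27 (limma adjusted p = 0.00224), while VRK2, which overlaps it, rose by 0.19 (limma adjusted p = 0.0177). FANCM rose by 0.37 (limma adjusted p = 0.0094), a call lost without DMSO replicate 1. FANCB and FANCC changed by 0.15 and 0.05 and did not pass. In all, 3 genes were higher and 3 lower, and 46.9% of all tested genes passed, 24.0% as higher and 22.9% as lower. Equal total FPKM gave 3 higher and 2 lower, where the median of all tested genes was 0.08. In FPKM as deposited the median change was 0.03, against 0.01 for all tested genes.

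THZ1 lowered FANCF and FANCG in both lines and raised FANCA, a direction that in WT turned with spike-in scaling. FANCA had 27.1, 28.4 and 28.0 FPKM in C312S with THZ1, against 9.66, 11.4 and 10.9 FPKM with DMSO, its largest change in any comparison reported by gene (1.31, 1.22 to 1.40, limma adjusted p = 5.27e-21). In WT it had 23.3, 24.0 and 24.6 FPKM with THZ1, against 12.8, 12.9 and 13.96 FPKM with DMSO (0.81, 0.72 to 0.90, limma adjusted p = 1.43e-16). In each line all treated libraries were above all DMSO libraries. With spike-in scaling the WT change was -1.44, so FANCA rose relative to the other genes only. ZNF276 changed by -0.66 in C312S and -0.67 in WT (limma adjusted p = 5.56e-08 and 2.71e-08).

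FANCF had 2.67, 2.62 and 3.07 FPKM in C312S with THZ1, against 5.34, 5.29 and 5.15 FPKM with DMSO, and in WT 2.98, 2.28 and 2.27 FPKM, against 4.47, 3.89 and 4.59 FPKM. No treated library reached a DMSO library, and the changes were -0.73 in C312S and -0.60 in WT (limma adjusted p = 1.28e-10 and 4.60e-09). FANCG had 13.3, 11.6 and 13.9 FPKM in C312S with THZ1, against 20.8, 20.8 and 22.6 FPKM with DMSO, and in WT 12.7, 11.6 and 11.1 FPKM, against 20.3, 20.4 and 19.8 FPKM. The FANCG changes of -0.68 and -0.73 (limma adjusted p = 4.44e-11 and 6.63e-12) differed between the lines by 0.04 (-0.13 to 0.22), C312S minus WT, which did not pass. FANCM rose by 0.35 in C312S and 0.52 in WT (limma adjusted p = 0.00919 and 0.000175), but the WT change was -1.37 with spike-in scaling and the C312S call was lost without THZ1 replicate 1.

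The 2 lines parted at FANCE, FANCL, FANCI and FANCA. FANCE had 11.4, 11.9 and 11.4 FPKM in C312S with THZ1, against 10.4, 10.2 and 9.44 FPKM with DMSO, a rise of 0.19 (limma adjusted p = 0.00867). In WT it had 7.20, 8.33 and 7.90 FPKM with THZ1, against 12.4, 11.02 and 12.5 FPKM with DMSO, a fall of 0.56 (limma adjusted p = 2.15e-09). The difference of the THZ1 effect, C312S minus WT, was 0.75 (0.57 to 0.93, limma adjusted p = 4.41e-08). The C312S rise itself was lost without C312S DMSO replicate 3 and with equal total FPKM, and was -0.01 with spike-in scaling. FANCL changed by 0.11 in C312S, where it did not pass, and fell by 0.30 in WT (limma adjusted p = 0.000368), a difference of 0.40 (limma adjusted p = 0.00136). VRK2 changed by 0.14 in C312S and 0.0004 in WT and passed in neither. FANCI fell by 0.41 in C312S (limma adjusted p = 1.52e-09) and changed by -0.05 in WT, where it did not pass, a difference of -0.36 (limma adjusted p = 2.36e-05). That difference was 1.81 with spike-in scaling. POLG changed by -0.05 in C312S and 0.14 in WT and passed in neither. FANCA differed by 0.49 (limma adjusted p = 1.58e-07). FANCD2 fell by 0.17 in C312S and 0.23 in WT (limma adjusted p = 0.00797 and 0.000513), and the difference of 0.06 (-0.10 to 0.21) did not pass. The C312S call was lost without DMSO replicate 1. FANCB and FANCC passed in neither line.

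**Figure D3:**
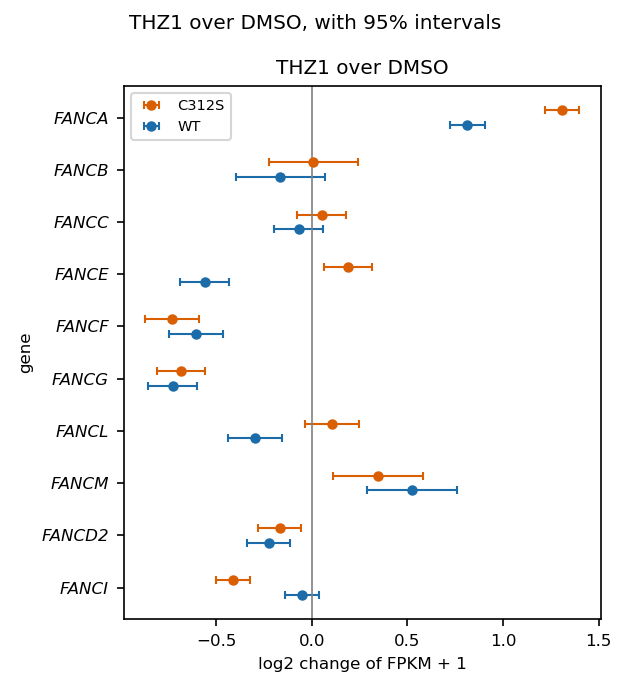
Log2 change of FPKM + 1 for THZ1 over DMSO with 95% intervals, C312S in orange above WT in blue, for each of the 10 genes. The intervals of the lines lie apart for FANCA, FANCE, FANCL and FANCI and overlap for the other 6 genes.

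With THZ1, 3 genes were higher and 4 lower in C312S, where 63.6% of all tested genes passed (33.9% as higher, 29.7% as lower), and 2 were higher and 5 lower in WT, where 68.8% passed (34.0% as higher, 34.8% as lower). The difference between lines passed for 4 genes, 3 of them higher in C312S, and for 42.2% of all tested genes, 22.4% as higher and 19.8% as lower. With spike-ins it was higher in C312S for all 10, where the median difference of all tested genes was 1.85. The splits moved with the scaling. With spike-ins, 1 gene was higher and 4 lower in C312S, and 0 were higher and 10 lower in WT. All tested genes then had medians of -0.14 in C312S and -1.99 in WT. Equal total FPKM gave 1 higher and 4 lower in C312S, and 2 were higher and 8 lower in WT, where those medians were -0.06 and -0.15. Since neither compound's dose is stated, no difference between THZ1 and THZ531 is drawn per gene. In WT, 0 genes were higher and 5 lower with THZ1 than with THZ531, where 61.2% of all tested genes passed, 30.5% as higher and 30.6% as lower.

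Adding YKL to THZ531 lowered FANCD2 and FANCE in WT cells at both doses. FANCD2 had 15.0, 14.5 and 14.1 FPKM with the combination at 500 nM and 14.9, 15.2 and 15.3 FPKM at 2 µM, against 25.5, 28.0 and 27.2 FPKM with THZ531 alone. These means were 54.1% and 56.3% of the THZ531 mean (log2 change -0.84 and -0.79, limma adjusted p = 2.20e-14 and 3.79e-14). FANCE had 5.94, 7.15 and 6.43 FPKM at 500 nM and 6.67, 6.20 and 5.93 FPKM at 2 µM, against 12.4, 12.0 and 11.6 FPKM with THZ531 alone (log2 change -0.80 and -0.84, limma adjusted p = 1.68e-12 and 1.78e-13). No combination library reached a THZ531 library for either gene. In C312S, FANCD2 had 26.4, 24.6 and 26.7 FPKM at 500 nM and 23.4, 22.9 and 24.9 FPKM at 2 µM, against 28.7, 24.1 and 27.0 FPKM with THZ531 alone. There the groups overlapped at each dose. The change of -0.03 at 500 nM did not pass, and that of -0.15 at 2 µM passed (limma adjusted p = 0.0273) but was lost by leaving out any of 4 single libraries, THZ531 replicate 1 or 3 or combination replicate 1 or 2. FANCE in C312S had 10.6, 11.6 and 11.1 FPKM at 500 nM and 8.69, 9.48 and 9.95 FPKM at 2 µM, against 12.8, 12.2 and 11.8 FPKM with THZ531 alone. It changed by -0.14 at 500 nM, which did not pass, and fell by 0.36 at 2 µM (limma adjusted p = 4.99e-05).

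The effect of adding YKL differed between the lines for these genes. For FANCD2 the difference, C312S minus WT, was 0.81 (0.65 to 0.97, limma adjusted p = 6.26e-10) at 500 nM and 0.63 (0.48 to 0.79, limma adjusted p = 4.58e-08) at 2 µM. For FANCE it was 0.66 (limma adjusted p = 3.51e-07) and 0.49 (limma adjusted p = 2.69e-05). Smaller differences passed for FANCA (0.23 and 0.28), FANCG (0.31 and 0.39) and FANCI (0.25 and 0.21), with limma adjusted p of 0.00336 and 0.000393, 0.00477 and 0.000398, and 0.00144 and 0.00449. With spike-in scaling FANCA, FANCG and FANCI no longer passed at 500 nM (limma adjusted p = 0.147, 0.0715 and 0.0888), and with GC and length trends removed the FANCA difference at 2 µM was 0.06 and did not pass. The other 5 genes passed at neither dose. ZNF276, which overlaps FANCA, differed by -0.17 at 500 nM, which did not pass, and by 0.33 at 2 µM (limma adjusted p = 0.0213). POLG, which overlaps FANCI, differed by -0.08 and 0.17 and passed at neither dose. At 500 nM 5 genes were higher in C312S and 0 lower, where 41.5% of all tested genes passed, 20.5% as higher and 21.0% as lower. At 2 µM again 5 were higher and 0 lower, where 53.1% passed, 25.9% as higher and 27.2% as lower. Without WT combination 2 µM replicate 1 the 2 µM split was 5 higher and 3 lower, and without C312S combination 2 µM replicate 3 it was 6 higher and 2 lower. With spike-ins 2 were higher and 0 lower at 500 nM, and 6 higher and 0 lower at 2 µM. The median differences of all tested genes were then 0.06 and 0.31.

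**Figure D4:**
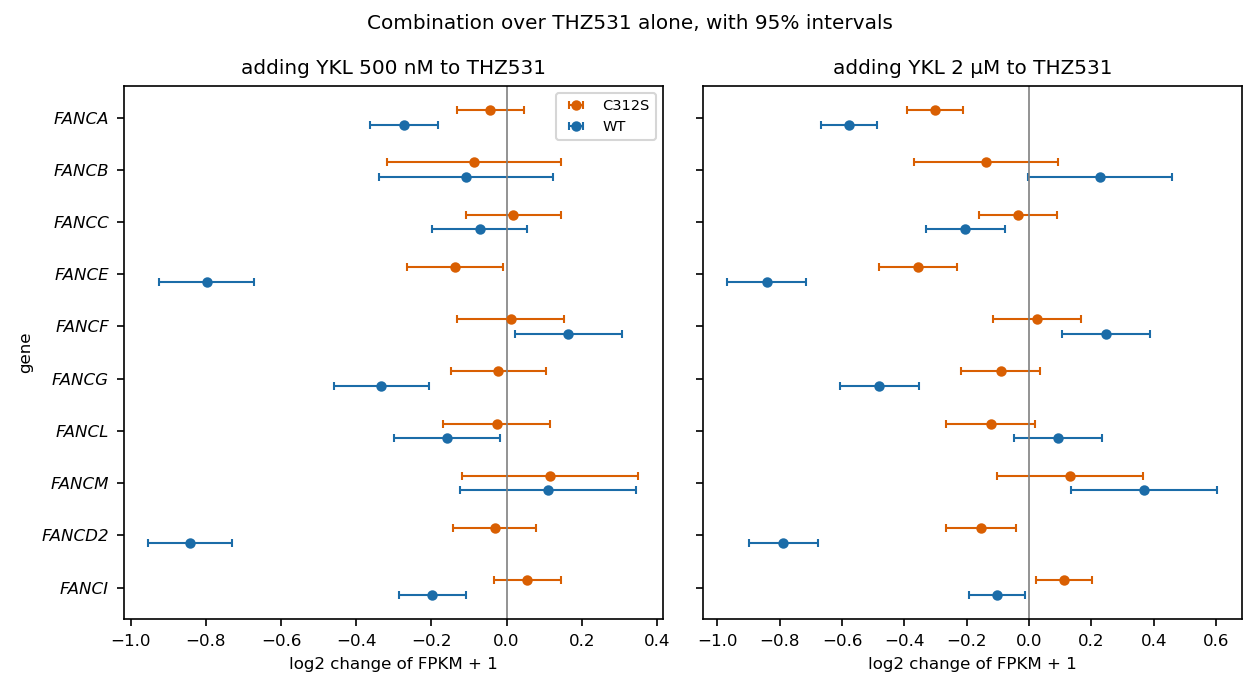
Log2 change of FPKM + 1 for each combination over THZ531 alone with 95% intervals, at 500 nM (left) and 2 µM (right), C312S in orange above WT in blue. In WT, FANCD2 and FANCE lie between -0.84 and -0.79 in both panels, whereas in C312S FANCD2 lies at -0.03 and -0.15 and FANCE at -0.14 and -0.36.

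FANCA came down towards its DMSO level when YKL was added in WT. It had 18.1, 19.1 and 18.5 FPKM with the combination at 500 nM and 14.4, 15.0 and 15.0 FPKM at 2 µM, against 21.7, 23.4 and 22.8 FPKM with THZ531 alone (log2 change -0.27 and -0.58, limma adjusted p = 3.19e-06 and 3.68e-13). The 3 groups did not overlap. In C312S it had 17.8, 18.7 and 18.9 FPKM at 500 nM and 15.5, 14.6 and 15.7 FPKM at 2 µM, against 19.2, 19.6 and 18.4 FPKM with THZ531 alone. The C312S change of -0.04 at 500 nM did not pass, and that of -0.30 at 2 µM did (limma adjusted p = 4.57e-06). ZNF276 in WT changed by 0.20 at 500 nM and -0.23 at 2 µM (limma adjusted p = 0.0373 and 0.0137).

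FANCG in WT fell by 0.33 and 0.48 when YKL was added (limma adjusted p = 2.66e-05 and 3.41e-08), and in C312S it changed by -0.02 and -0.09 and passed at neither dose. FANCI in WT fell by 0.20 at 500 nM (limma adjusted p = 0.000268), and the fall of 0.10 at 2 µM (limma adjusted p = 0.0361) was lost without THZ531 replicate 2 or 3 or combination replicate 1. POLG changed by 0.13 at 500 nM, which did not pass, and fell by 0.23 at 2 µM (limma adjusted p = 0.00242). FANCF rose by 0.16 and 0.25 in WT (limma adjusted p = 0.0407 and 0.00199). Scaled by spike-ins these were -0.19 and -0.66, and without THZ531 replicate 2 or 3, or combination replicate 1 or 2, the call at 500 nM was lost. FANCL fell by 0.16 at 500 nM (limma adjusted p = 0.049), a call lost without THZ531 replicate 1 or 3 or combination replicate 1 or 2 and with a replicate block, and its change of 0.09 at 2 µM did not pass. At 2 µM FANCL was -0.32 with GC and length trends removed and -1.06 with spike-ins (limma adjusted p = 3.01e-07 and 1.01e-10), and VRK2 rose by 0.40 (limma adjusted p = 1.90e-06). VRK2 changed by 0.04 at 500 nM and did not pass. FANCC changed by -0.07 at 500 nM, which did not pass, and fell by 0.20 at 2 µM (limma adjusted p = 0.004). FANCM changed by 0.11 at 500 nM, which did not pass, and rose by 0.37 at 2 µM (limma adjusted p = 0.00473), a call lost without combination replicate 3 and turned to -0.66 with spike-in scaling. FANCB passed at neither dose.

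In WT, 1 gene was higher and 6 lower with the combination at 500 nM than with THZ531 alone, where 61.1% of all tested genes passed (31.5% as higher, 29.7% as lower). At 2 µM, 2 were higher and 6 lower, where 73.5% passed (38.3% as higher, 35.3% as lower). In C312S, 0 of the 10 genes passed limma's test at 500 nM, where 0.577% of all tested genes passed (0.390% as higher, 0.187% as lower). There 1 of the 10 (FANCE) had an unadjusted p under 0.05, and the share of all tested genes for this is not given here. At 2 µM, 1 was higher (FANCI, by 0.11) and 3 were lower in C312S, where 34.8% passed (18.5% as higher, 16.3% as lower). The FANCI call there (limma adjusted p = 0.0488) was lost in 5 of the 6 fits without a library. With spike-ins, 0 were higher and 8 lower in WT at 500 nM and 0 higher and 10 lower at 2 µM, and in C312S 0 were higher and 9 lower at 500 nM and 0 higher and 10 lower at 2 µM. All tested genes then had medians of -0.40 and -0.98 in WT and -0.34 and -0.68 in C312S.

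Over DMSO, the WT combinations held falls of FANCD2 (-0.83 at 500 nM and -0.77 at 2 µM), FANCE (-0.79 and -0.84) and FANCG (-0.74 and -0.89) together with a rise of FANCA (0.46 and 0.15). The limma adjusted p of FANCD2 were 1.91e-14 and 4.18e-14, of FANCE 1.26e-12 and 1.53e-13, of FANCG 4.82e-12 and 3.16e-14, and of FANCA 1.07e-10 and 0.00215. FANCA was 0.10 at 500 nM with spike-in scaling, which did not pass, and -0.90 at 2 µM. FANCF fell by 0.36 and 0.28 and FANCI by 0.34 and 0.25 (limma adjusted p = 3.00e-05, 0.000549, 4.38e-08 and 7.13e-06). POLG changed by -0.02 at 500 nM, which did not pass, and fell by 0.38 at 2 µM (limma adjusted p = 4.41e-06), and ZNF276 fell by 0.68 and 1.11 (limma adjusted p = 2.66e-08 and 2.47e-13). FANCM had 6.30, 4.80 and 6.81 FPKM at 500 nM and 5.83, 7.78 and 8.47 FPKM at 2 µM, against 3.44, 4.26 and 4.24 FPKM with DMSO, and rose by 0.48 and 0.74 (limma adjusted p = 0.000508 and 8.66e-07). At 2 µM FANCB rose by 0.38 and FANCL by 0.36 (limma adjusted p = 0.00313 and 2.58e-05), beside a rise of VRK2 by 0.59 (limma adjusted p = 1.12e-09). With spike-in scaling the changes at 2 µM were -0.61 for FANCB, -0.72 for FANCL and -0.21 for FANCM, and with GC and length trends removed FANCL was -0.12 and FANCB 0.07. FANCC fell by 0.15 at 2 µM (limma adjusted p = 0.0255), a call lost without combination replicate 1 or 3 or DMSO replicate 3. In all, 2 genes were higher and 5 lower at 500 nM, where 68.2% of all tested genes passed (34.0% as higher, 34.2% as lower). At 2 µM, 4 were higher and 6 lower, where 77.1% passed (38.9% as higher, 38.1% as lower). With spike-ins these were 0 higher and 7 lower at 500 nM, and 0 higher and 9 lower at 2 µM. All tested genes then had medians of -0.34 and -0.93. With equal total FPKM the splits were 3 higher and 5 lower, and 3 higher and 6 lower, where those medians were 0.14 and -0.03.

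**Figure D5:**
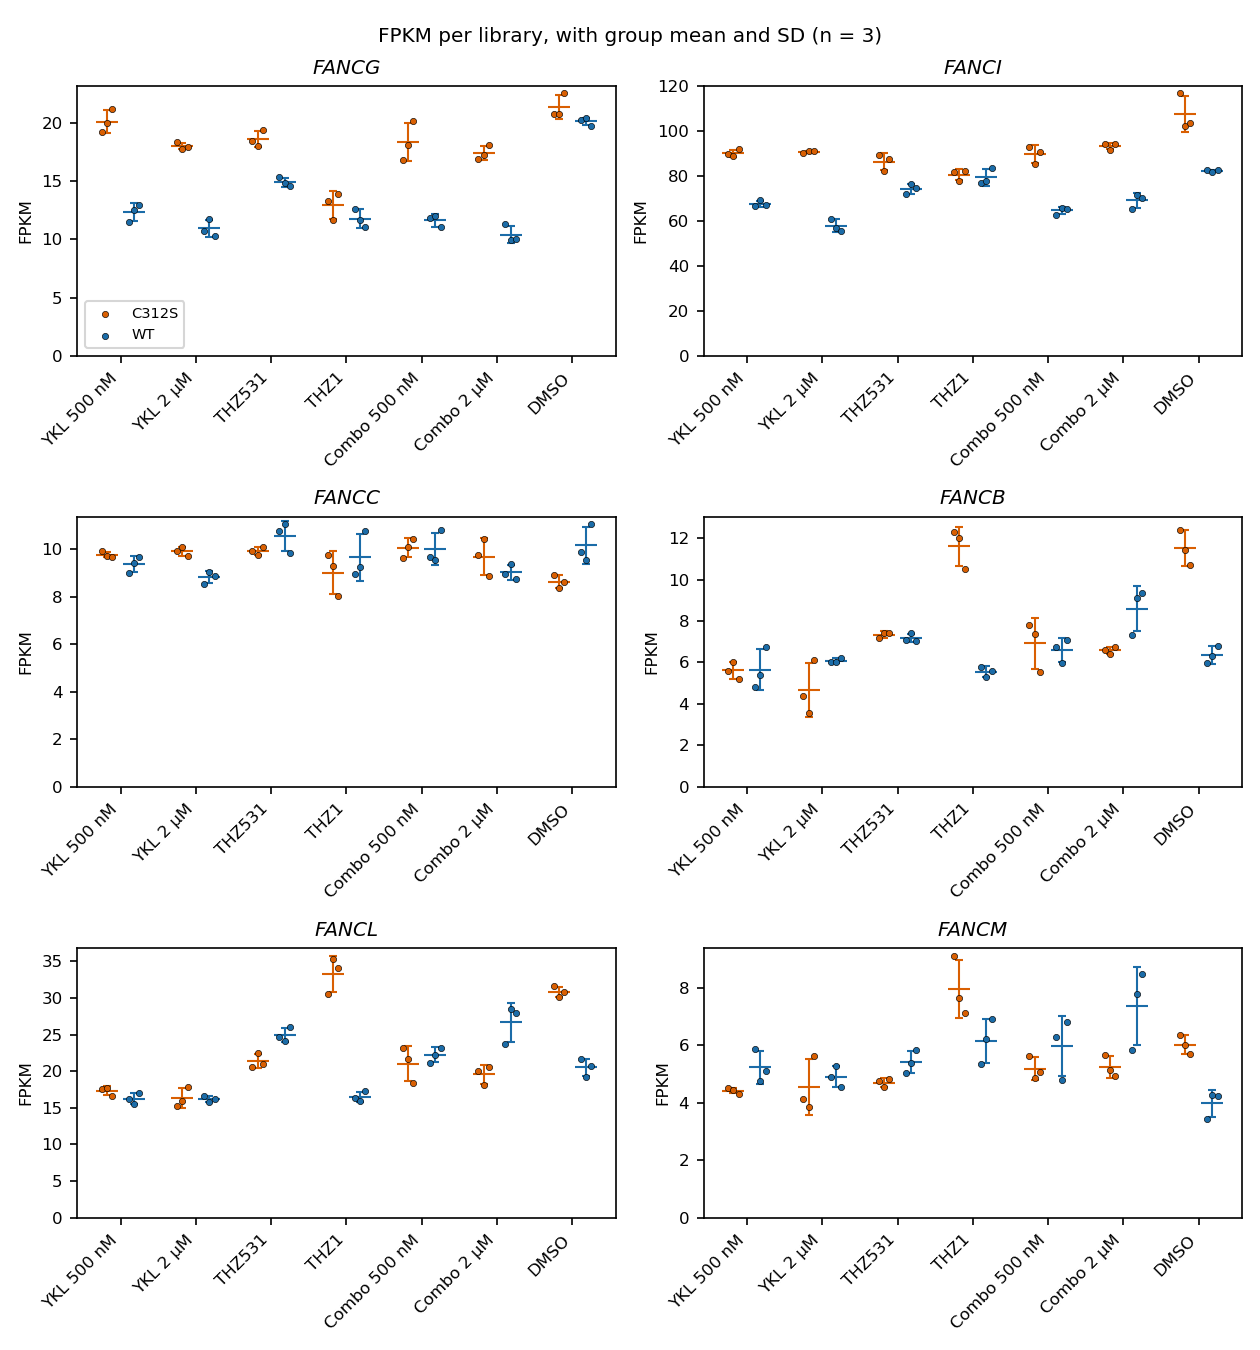
FPKM of FANCG, FANCI, FANCC, FANCB, FANCL and FANCM in each library (points) for the 7 treatments, with group mean and SD (bars, n = 3), C312S in orange left of WT in blue. FANCB and FANCL stand highest in C312S with DMSO and THZ1, and FANCC stays between 8.63 and 10.6 FPKM in all 14 group means.

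Within C312S, YKL at 2 µM against 500 nM passed for 1 gene, FANCE (-0.24, limma adjusted p = 0.0249), where 3.67% of all tested genes passed (2.02% as higher, 1.65% as lower), and that call was lost without YKL 2 µM replicate 1 or 3 or YKL 500 nM replicate 2 or 3. The interval for FANCD2 was -0.28 to -0.06 (limma adjusted p = 0.0674) and that for FANCA -0.19 to -0.01 (limma adjusted p = 0.207). THZ531 against YKL 500 nM in C312S passed for 3 genes, all higher, where 26.0% of all tested genes passed, 13.2% as higher and 12.8% as lower. FANCA rose by 0.48 (limma adjusted p = 4.72e-09), FANCL by 0.29 (limma adjusted p = 0.00301) and FANCB by 0.34 (limma adjusted p = 0.0274), the last lost by leaving out any of 4 single libraries. ZNF276 fell by 0.61 (limma adjusted p = 4.34e-06), and VRK2 rose by 0.21 (limma adjusted p = 0.0179). With spike-in scaling all 10 genes were higher, where the median of all tested genes was 0.40.

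Against C312S DMSO, whose libraries stand apart, YKL 500 nM gave 2 genes higher and 6 lower, where 76.4% of all tested genes passed (36.9% as higher, 39.6% as lower). YKL 2 µM gave 2 higher and 7 lower, where 75.8% passed (36.6% as higher, 39.2% as lower). THZ531 gave 3 higher and 7 lower, where 74.1% passed (34.6% as higher, 39.5% as lower). The combination at 500 nM gave 2 higher and 6 lower, where 73.4% passed (35.0% as higher, 38.4% as lower), and that at 2 µM 2 higher and 6 lower, where 68.7% passed (32.8% as higher, 35.9% as lower). With equal total FPKM the splits for these 5 comparisons were 6 higher and 2 lower, 5 and 2, 6 and 0, 6 and 0, and 4 and 2. With spike-ins they were 9 higher and 0 lower, 9 and 0, 10 and 0, 10 and 0, and 7 and 0. In the same order, the medians of all tested genes were 0.35, 0.36, 0.33, 0.36 and 0.30 with equal total FPKM. With spike-ins those medians were 0.86, 0.96, 1.27, 0.94 and 0.61. The direction of these splits therefore rests on the scaling.

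The lines with DMSO alone also differed, although the C312S DMSO libraries stand apart. FANCB had 12.4, 11.5 and 10.7 FPKM in C312S with DMSO, against 5.95, 6.29 and 6.82 FPKM in WT with DMSO, a change of 0.77 (limma adjusted p = 3.09e-07). With THZ531 in both lines FANCB changed by 0.03 and did not pass. FANCL had 31.6, 30.2 and 30.8 FPKM in C312S, against 21.6, 19.3 and 20.7 FPKM in WT (0.57, limma adjusted p = 9.86e-09), and VRK2 was higher in C312S too (0.70, limma adjusted p = 2.05e-11). FANCA had 9.66, 11.4 and 10.9 FPKM in C312S, against 12.8, 12.9 and 13.96 FPKM in WT (-0.29, limma adjusted p = 6.15e-07), and ZNF276 fell by 1.31 (limma adjusted p = 6.81e-15). Once GC and length trends were taken out, the FANCL and FANCA changes turned, to -0.15 for FANCL and 0.16 for FANCA (limma adjusted p = 0.00359 and 0.00408). In all, 6 genes were higher in C312S and 3 lower, where 79.2% of all tested genes passed, 41.3% as higher and 37.9% as lower. Equal total FPKM gave 1 higher and 7 lower, and with spike-ins 0 were higher and 10 lower. The medians of all tested genes were then -0.36 and -1.12. With THZ531 in both lines, 3 genes were higher in C312S (FANCF, FANCG and FANCI) and 2 lower (FANCA and FANCL). Of all 12816 tested genes 30.4% passed there, 2176 genes as higher and 1724 (13.5%) as lower. With spike-ins 3 of the 10 genes were higher and 0 lower, where the median of all tested genes was 0.10.

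A list of 30 other genes of crosslink repair, all tested, was set beside the 10 genes. Counts of this list are from FPKM as deposited and were not repeated with other scalings. With YKL 500 nM in WT 6 of the 30 were higher and 7 lower, with a median change of -0.02, where 31.3% of all tested genes were higher and 31.7% lower. With YKL 2 µM 6 were higher and 13 lower (-0.13), where 31.8% of all were higher and 33.5% lower. EME1, a subunit of a structure-selective nuclease, fell by 0.87 with 500 nM (limma adjusted p = 3.13e-11), while MUS81, its partner, rose by 0.55 (limma adjusted p = 8.28e-08). BLM, a helicase, fell by 0.45 (limma adjusted p = 4.70e-09). UBE2T, the ubiquitin-conjugating enzyme that works with FANCL, changed by -0.04 with 500 nM, which did not pass, and fell by 0.38 with 2 µM (limma adjusted p = 3.86e-05). USP1, which removes ubiquitin from FANCD2, changed by -0.14 with 500 nM, which did not pass, and fell by 0.22 with 2 µM (limma adjusted p = 0.0167).

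THZ531 in WT gave 5 of the 30 higher and 13 lower, with a median of -0.07, where 24.0% of all tested genes were higher and 22.9% lower. BRCA1, a recombination factor, fell by 0.46, ERCC1, a nuclease subunit, by 0.57 and MUS81 by 0.52 (limma adjusted p = 2.73e-08, 3.25e-07 and 6.52e-07). THZ1 gave 2 higher and 16 lower in C312S (median -0.23), where 33.9% of all were higher and 29.7% lower, and 2 higher and 20 lower in WT (median -0.27), where 34.0% were higher and 34.8% lower. BRCA1 had 9.35, 8.96 and 7.84 FPKM in C312S with THZ1, against 17.5, 16.9 and 16.5 FPKM with DMSO, and in WT 7.71, 8.28 and 8.74 FPKM, against 16.8, 16.7 and 18.1 FPKM. It fell by 0.89 in C312S and 0.98 in WT (limma adjusted p = 2.24e-15 and 1.05e-16), where FANCA rose. BRCA2, a recombination mediator, passed with none of YKL 500 nM, YKL 2 µM, THZ531, THZ1 or the combination at 2 µM in WT, nor with THZ1 in C312S, with changes between -0.07 and 0.17. Its change with the combination at 500 nM in WT is not reported here. The combinations at 500 nM and 2 µM gave 3 of the 30 higher and 11 lower, and 9 higher and 11 lower, in WT, where of all tested genes 34.0% were higher and 34.2% lower, and 38.9% higher and 38.1% lower.

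A list of 44 S phase genes was set beside FANCD2 and FANCE. Its counts are from FPKM as deposited and were not repeated with other scalings. In WT, 4 were higher and 35 lower with YKL 500 nM (median -0.49), where 31.3% of all tested genes were higher and 31.7% lower. With YKL 2 µM in WT, 3 were higher and 38 lower (-0.63), against 31.8% and 33.5% of all. With THZ531 in WT, where FANCD2 and FANCE changed by 0.01, 6 were higher and 19 lower (-0.04), against 24.0% and 22.9% of all tested genes. With THZ1, 10 were higher and 20 lower in C312S (-0.08), where FANCE rose, against 33.9% and 29.7% of all. In WT, 6 were higher and 32 lower with THZ1 (-0.35), against 34.0% and 34.8% of all. In C312S the combination at 500 nM over THZ531 gave 0 of the 44 passing limma's test, where 0.577% of all tested genes passed. There 9 of the 44 had an unadjusted p under 0.05, and the share of all tested genes for this is not given here. In C312S the combination at 2 µM over THZ531 gave 11 higher and 19 lower (-0.06), against 18.5% and 16.3% of all. When YKL was added to THZ531, the change was higher in C312S than in WT for 30 of the 44 and lower for 7 at 500 nM, and higher for 31 and lower for 7 at 2 µM. Of all tested genes, 20.5% were higher and 21.0% lower at 500 nM, and 25.9% higher and 27.2% lower at 2 µM. The part of this in the Fanconi anaemia genes was not tested.

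Across the 14 group means of log2(FPKM + 1), FANCD2 and FANCE followed each other (Pearson's r = 0.931), as did FANCB and FANCL (0.944), while FANCA and FANCF ran against each other (-0.919). FANCB and FANCL had their highest means in C312S with DMSO and THZ1, whose libraries stand apart. Both have transcripts low in GC (36.7% and 39.3%), as has FANCM (37.7%), whose r was 0.677 with FANCB and 0.660 with FANCL. The part of GC, or of the libraries that stand apart, in these values of r was not tested. The gene most like FANCD2 among all tested genes was SFPQ (0.982), that most like FANCE was NCAPH (0.982), that most like FANCG was CENPM (0.976), and that most like FANCA was SLC25A51 (0.968). FANCF was most like ZNF75A (0.961), FANCB like ACTR6 (0.989), FANCL like UNC50 (0.976), FANCM like KATNA1 (0.977), FANCI like PIGU (0.963) and FANCC like DNMT3B (0.934). These correlations are descriptions over 14 points that share lines and library scaling, with no test.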

How the data were processed

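Polyadenylated RNA of 42 HAP1 libraries was sequenced. The values are FPKM per gene as the authors deposited them, and hg19, Cuffnorm, Cufflinks 2.2.1 and HISAT2 2.0.4 are named without order in the submitters' processing notes. Filters and normalization settings are not given in the sources used here. Each of the 42 columns was matched to a sample by its description, and 0 were left over. Of 26320 rows 92 are ERCC spike-ins. The table holds no read counts, so depth is unknown, no counting interval is given, and no count model was used.

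A gene was tested if 3 or more libraries reached 1 FPKM, with limma 3.58.1 (run in R 4.3.3, files read by data.table at version 1.17.8) after adding 1 and taking log2, as 14 group means sharing 1 trended estimate of spread, in 25 comparisons, after a check on simulated data. Intervals are 95%. Alternatives were a pseudocount of 0.1, no filter, 3 scalings, a replicate block, removal of GC and length trends, only the groups compared, and each library left out. Leaving the C312S DMSO and THZ1 libraries out of the fit was added after seeing the data. Within groups the lowest correlation was 0.97 and 0 library pairs were identical.

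The members, gene lists and tests were chosen with earlier results of these data known. All members are named; other pathway genes are named where p is among the 3 smallest in a direction, or for BRCA1, BRCA2, UBE2T and USP1; some genes of the lists are not reported here. Python 3.11.15, pandas 2.3.3 and matplotlib 3.10.9 drew the plots.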

Additional observations from a re-analysis of the deposited data

Results flagged for a closer look

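Under the same contrast the 2 lines differed for 14 combinations of gene and treatment by a test of the difference itself, C312S minus WT, on the log2 scale with limma's adjusted p. For the effect of THZ1 over DMSO the difference was 0.49 for FANCA (limma adjusted p = 1.58e-07), 0.75 for FANCE (4.41e-08), -0.36 for FANCI (2.36e-05) and 0.40 for FANCL (0.00136). Of all tested genes 42.2% passed. The FANCI difference was 1.81 with spike-in scaling, where the median of all tested genes was 1.85. FANCE was 11.6 ± 0.283 FPKM with THZ1 in C312S, against 10.0 ± 0.519 FPKM with DMSO, and 7.81 ± 0.570 FPKM with THZ1 in WT, against 12.0 ± 0.829 FPKM with DMSO (SD, n = 3).

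For the effect of adding YKL 500 nM to THZ531 the difference was 0.23 for FANCA (limma adjusted p = 0.00336), 0.81 for FANCD2 (6.26e-10), 0.66 for FANCE (3.51e-07), 0.31 for FANCG (0.00477) and 0.25 for FANCI (0.00144). Of all tested genes 41.5% passed at this dose. FANCA, FANCG and FANCI did not pass there with spike-in scaling. For adding YKL 2 µM the difference was 0.28 for FANCA (limma adjusted p = 0.000393), 0.63 for FANCD2 (4.58e-08), 0.49 for FANCE (2.69e-05), 0.39 for FANCG (0.000398) and 0.21 for FANCI (0.00449). Of all tested genes 53.1% passed at this dose. FANCA did not pass there with GC and length trends removed. ZNF276, which overlaps FANCA, also differed at 2 µM, by 0.33 (limma adjusted p = 0.0213).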

How the results depend on the processing

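Over the 18 comparisons with values per gene (180 values), 178 kept their direction and their side of the threshold with a replicate block, and 2 lost the call: FANCL in WT combination 500 nM over THZ531 and FANCI in C312S combination 2 µM over THZ531 (-0.16 and 0.11). Counts of genes passed with the block ran from 0 to 10 and equalled the count without it except for WT combination 500 nM over THZ531 (6) and C312S combination 2 µM over THZ531 (3). Replicate numbers did not pair the libraries in any of the 25 comparisons. The falls of FANCD2, FANCE and FANCG with YKL in WT, and with THZ531 in WT the rise of FANCA and the falls of FANCF and FANCG, passed under every alternative run. The cause of the changes listed here was not tested.

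Equal total FPKM and spike-ins also shift all tested genes, with medians of -0.20 and -2.05 for WT THZ1 over THZ531. Counts of the 10 genes passed moved as follows. The shares of all tested genes passed in these settings are not given here, so the counts show no trait particular to the 10 genes. With equal total FPKM they were 1 for WT YKL 2 µM over 500 nM, 9 for WT THZ1 over THZ531 and 6 for C312S THZ531 over DMSO. With spike-ins they were 10 for WT YKL 2 µM over 500 nM, 10 for WT THZ1 over THZ531, 0 for C312S YKL 2 µM over 500 nM, 9 and 10 for C312S combinations at 500 nM and 2 µM over THZ531, 10 for C312S THZ531 over YKL 500 nM, 3 for C312S over WT with THZ531, 10 for the THZ1 effect between lines and 2 for adding YKL 500 nM between lines. With GC and length trends removed they were 5 for C312S YKL 500 nM over DMSO and 2 for C312S YKL 2 µM over 500 nM. With only the groups compared they were 1 for WT YKL 2 µM over 500 nM and 2 for C312S combination 2 µM over THZ531. Leaving out a library gave 1 to 2 for WT YKL 2 µM over 500 nM, 0 to 1 for C312S YKL 2 µM over 500 nM, 2 to 3 for C312S combination 2 µM over THZ531 and 5 to 8 for adding YKL 2 µM between lines.

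Changes that turned were these, on the log2 scale. With equal total FPKM: For WT YKL 2 µM over DMSO FANCC 0.083. For C312S DMSO over WT DMSO FANCD2 -0.29, FANCF -0.18, FANCG -0.40 and FANCI -0.12. With GC and length trends removed: For WT combination 2 µM over DMSO FANCL -0.12. For WT combination 2 µM over THZ531 FANCL -0.32. For C312S DMSO over WT DMSO FANCA 0.16 and FANCL -0.15. With spike-ins: For WT YKL 500 nM over DMSO FANCF -0.51 and FANCM -0.22. For WT THZ1 over DMSO FANCA -1.44 and FANCM -1.37. For WT combination 500 nM over DMSO FANCL -0.27. For WT combination 2 µM over DMSO FANCA -0.90, FANCB -0.61, FANCL -0.72 and FANCM -0.21. For WT YKL 2 µM over YKL 500 nM FANCA 0.33, FANCC 0.42, FANCD2 0.30, FANCE 0.45, FANCG 0.35, FANCI 0.31, FANCL 0.51 and FANCM 0.39. For WT combination 500 nM over THZ531 FANCF -0.19. For WT combination 2 µM over THZ531 FANCB -0.84, FANCF -0.66, FANCL -1.06 and FANCM -0.66. For C312S THZ1 over DMSO FANCE -0.012. For C312S combination 500 nM over THZ531 FANCC -0.34, FANCF -0.31 and FANCI -0.32. For C312S combination 2 µM over THZ531 FANCF -0.62, FANCI -0.66 and FANCM -0.54. For C312S THZ531 over YKL 500 nM FANCF 0.24, FANCG 0.33 and FANCI 0.39. For C312S DMSO over WT DMSO FANCB -0.52, FANCD2 -1.19, FANCF -0.94, FANCG -1.30, FANCI -1.05, FANCL -0.83 and FANCM -0.69. For the THZ1 effect, C312S minus WT FANCF 1.39, FANCI 1.81 and FANCM 1.51.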
